A study of Mus musculus with 2 samples.

Results

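The genes described here are 10 chaperone and heat shock genes, taken by symbol from the 27998 genes of the deposited tables: the transcription factor Hsf1, the HSP70 genes Hspa8 and Hspa1b, the HSP110 genes Hsph1 and Hspa4l, the HSP90 genes Hsp90aa1 and Hsp90ab1, and the co-chaperones Dnajb1, Bag3 and Stip1. They were selected on the HKO and WT levels of these same libraries, by class of nuclei. Differences between HKO and WT are therefore descriptions of these libraries, given without a test. All 10 were found in the tables. In hepatocyte-like nuclei 8 of them reached the minimum used for counting differences, a mean of 10 CPM (UMIs of a gene per 1000000 UMIs of the class) over both libraries, while Hspa1b and Dnajb1 lay below it.

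The libraries are single-nucleus RNA profiles of mouse liver, made on 10x droplets that tag the 3′ end of each transcript with a unique molecular identifier, or UMI. One library comes from Sox9HKO mice (HKO) and one from Sox9f/f mice (WT), both C57BL/6, 12 weeks old and sampled 48 h after PHx, partial hepatectomy, in which part of the liver is removed and the rest regrows. The labels do not spell out HKO, do not give the Cre, its promoter or the cells it acts in, and do not say how many animals stand behind a library. With 1 library a group there is no replicate check of any difference, and genotype, animal and library preparation cannot be told apart.

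Chaperones bind unfolded or partly folded proteins and keep them from aggregating. HSP70 proteins work with J-domain proteins, which deliver substrates and stimulate ATP hydrolysis, and with nucleotide exchange factors, which release the bound ADP, and they hand substrates on to HSP90. Under heat or other protein damage the factor Hsf1 binds heat shock elements, inverted repeats of the letters GAA and TTC, and raises transcription of many of these genes. In liver, where hepatocytes make large amounts of protein, these chaperones are expressed without stress as well.

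The HKO library held 14912 barcodes with a median of 3286 UMIs, and the WT library 14701 barcodes with a median of 3430 UMIs; 70 barcodes occurred in both. After filtering, 14902 HKO and 14515 WT nuclei remained, of which 8136 HKO and 7760 WT nuclei were called hepatocyte-like from markers. Nearly all large clusters belonged to 1 library. The median mitochondrial share of UMIs was 0.109% in HKO and 0.331% in WT. Sox9 itself, the targeted gene, had 211 UMIs or 5.91 CPM in HKO and 415 UMIs or 11.7 CPM in WT hepatocyte-like nuclei; the deleted part is not given, so 3′ counts may lie outside it. The nuclear RNA Malat1 had 50937 CPM in HKO, against 38534 in WT, and Neat1 had 3427 CPM in HKO, against 5340 in WT. Together the haemoglobin genes in these nuclei reached 38.5 CPM in HKO, against 2.20 in WT; over all nuclei kept they stood at 25.2 CPM in HKO, against 13.4 in WT. The clusters led by mitochondrial and haemoglobin genes, left unnamed and so outside the hepatocyte-like class, held 33 HKO nuclei, 0.221% of those kept, and 2652 WT nuclei, 18.3% of those kept. The part of these differences in the chaperone values was not tested.

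In hepatocyte-like nuclei all 10 genes had a higher level in HKO than in WT. The summed level of the 10 was 947 CPM in HKO, against 471 CPM in WT, a ratio of 2.01 (95% interval 1.97 to 2.05). Hspa1b differed by the largest ratio, Hsph1 and Hspa4l followed, the HSP90 genes, Bag3, Stip1 and Dnajb1 had ratios of 2.04 to 2.39, and Hspa8 and Hsf1 differed least. Intervals here and below are exact 95% intervals of the UMI counts, Poisson for levels, conditional for ratios and Clopper-Pearson for shares. They cover counting error only, not differences between animals or preparations. Levels are CPM of a class of nuclei in a library, and since they are not divided by gene length they are compared between libraries, not between genes.

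Counted by size, a log2 ratio of at least 1 after adding 0.5 CPM, 6 of the 8 measured genes were higher in HKO and 0 were lower. Among all 8344 genes at that minimum, 2.97% were higher in HKO and 4.25% lower by the same rule. The 8 genes had a median log2 ratio of 1.05, beside 0.17 for all genes. Over all nuclei kept, 4 of 8 were higher in HKO (3.18% of all genes) and 0 lower (4.3% of all genes). Because the genes were chosen with this contrast in view, nothing is read from either comparison. Scaling matters to the count: the median of all genes was 0.03 with TMM factors, and 3 of the 8, Hsph1, Hspa4l and Stip1, remained past the size, as was also so with median ratio factors. Of all genes past the size in either direction, 41.1% were higher in HKO with class totals, 27.5% with TMM factors and 30.8% with median ratio factors.

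**Figure D1:**
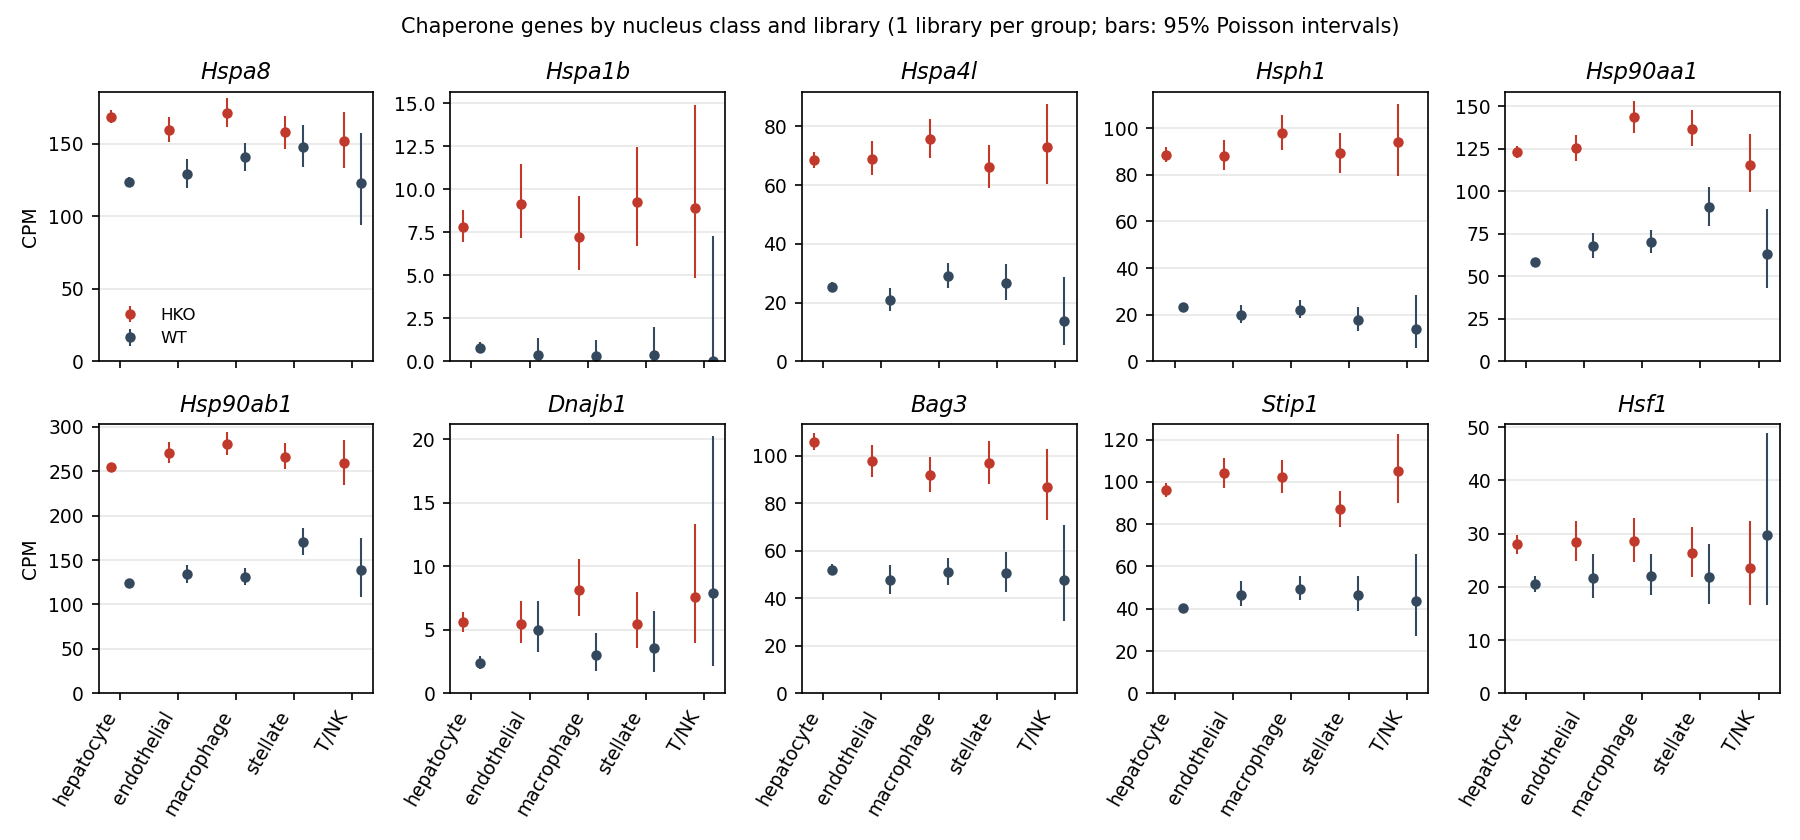
Level of each of the 10 genes in CPM (vertical axis, from 0, own scale in each panel) in 5 classes of nuclei, HKO at the left of WT in each class, with exact 95% Poisson intervals and 1 library per group. Hsph1, Hspa4l, Bag3, Stip1, Hsp90aa1 and Hsp90ab1 lie higher in HKO in every class, with intervals that do not overlap, while those of Hspa8 overlap in stellate-like and T/NK-like nuclei and those of Hsf1 in all classes but hepatocyte-like.

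Hsf1, the factor that switches on heat shock genes, lies at chr15:76477422-76501913 on the plus strand (GRCm38, 13 exons). It had 998 UMIs or 28.0 CPM in HKO and 726 UMIs or 20.5 CPM in WT hepatocyte-like nuclei. The ratio was 1.36 (1.24 to 1.5), a log2 ratio of 0.44, under the size used for counting. In endothelial-like nuclei Hsf1 had 28.5 CPM in HKO against 21.7 in WT, and in macrophage-like nuclei 28.6 CPM in HKO against 22.1 in WT. In stellate-like nuclei the ratio of 1.2 (0.878 to 1.65) and in T/NK-like nuclei that of 0.791 (0.424 to 1.55) included 1. Hsf1 protein is regulated largely by release from chaperones and by phosphorylation, which RNA counts do not measure. The other measured genes of the heat shock factor list, Hsf2 and Hsf5, had log2 ratios of 0.26 and 0.58.

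Promoter windows from 250 bases before to 50 after the start site were given for 6 of the 10 genes, as 8 windows (RefSeq, GRCm38.p6). They were searched on both strands for the paired letters of a heat shock element, GAANNTTC and TTCNNGAA, and for the long form in which one of each overlaps in 3 letters. Either short pattern reads the same on both strands. Of 32851 windows of this length in the genome, 7.86% held GAANNTTC, 8.52% held TTCNNGAA and 0.603% held a long form. Hsph1 had 1 GAANNTTC and 2 TTCNNGAA in each of its 2 windows, of which one of each overlapped as a long form; Bag3 and Hspa1b had 1 GAANNTTC each. No window of Hspa4l, Dnajb1 or Stip1 held any of these letters, which says nothing of elements outside the window or with other letters. The Hspa4l window, chr3:40745363-40745662, lies inside the annotated gene, which begins at chr3:40744495, so the stretch before that beginning was not searched. The matched stretches are shown because these are the letters that Hsf1 is known to bind. Ratios in hepatocyte-like nuclei were 3.84, 2.04 and 9.88 for Hsph1, Bag3 and Hspa1b, which had a match. They were 2.70, 2.39 and 2.36 for Hspa4l, Stip1 and Dnajb1, which had none. The genes are few and were chosen on these ratios, so nothing is read from this comparison. Capitals mark the matched letters, and the lines give Hsph1 before its start site (chr5:149636351-149636380, minus strand), Hsph1 after its start site (chr5:149636287-149636306, minus strand), Bag3 after its start site (chr7:128523619-128523632, plus strand) and Hspa1b before its start site (chr17:34959239-34959362, minus strand). Start sites here are those of the windows. For Hsph1 that site lies inside the annotated gene, which reaches chr5:149636376, and the matched letters before the site lie inside that gene too. A match is a description of the sequence and does not show binding.
Hsph1, before the start: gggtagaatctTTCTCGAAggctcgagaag
Hsph1, after the start: tgcagaTTCTGGAAAGTTCt
Bag3, after the start: ggaccaGAAGTTTC
Hspa1b, before the start: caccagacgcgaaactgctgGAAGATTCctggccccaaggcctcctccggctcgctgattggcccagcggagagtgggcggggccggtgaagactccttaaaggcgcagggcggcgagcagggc

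Hspa1b encodes the stress-inducible form of HSP70, which cells make little of at rest. The gene lies at chr17:34956436-34959238 on the minus strand as a single exon with no intron. In hepatocyte-like nuclei it had 279 UMIs or 7.82 CPM in HKO and 28 UMIs or 0.791 CPM in WT, a ratio of 9.88 (6.69 to 15.1). The level stayed below 10 CPM in both libraries, so Hspa1b entered no count. Its log2 ratio of 2.69 depended on the amount added before taking logs, and was 1.15 after adding 5 CPM. In endothelial-like nuclei it had 74 UMIs in HKO and 2 in WT, a ratio of 23.9 (6.40 to 201). Macrophage-like nuclei had 48 UMIs in HKO and 2 in WT, a ratio of 21.6 (5.66 to 183), and stellate-like nuclei 44 in HKO and 1 in WT. In T/NK-like nuclei 14 UMIs were found in HKO and 0 in WT; against the floor of 3 counts in that class the HKO level of 8.88 CPM was at least 1.4958-fold higher, while the exact interval of the ratio began at 1.06. The wide intervals come from the few WT counts, and the HKO level itself, 7.23 to 9.26 CPM over the 5 classes, had overlapping intervals throughout.

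The copy Hspa1a, next to Hspa1b on chromosome 17, had 19 UMIs in HKO and 3 in WT hepatocyte-like nuclei, a ratio of 6.28 (1.85 to 33.1). The coding sequences of the copies were identical at 99.6% of 1923 aligned bases, while the stretches after the stop codon were identical at 57.7% of 639 aligned bases. Whether reads shared by the copies were counted is not stated by the labels or headers, so both values are uncertain. With the counts of both copies summed, the log2 ratio was 2.69 in hepatocyte-like nuclei.

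Hspa8 encodes the HSP70 that cells make constantly (chr9:40800984-40810087, plus strand). In hepatocyte-like nuclei it had 6021 UMIs or 169 CPM in HKO and 4371 UMIs or 124 CPM in WT, a ratio of 1.37 (1.31 to 1.42). The log2 ratio of 0.45 was higher than that of 82.3% of all genes, but under the size used for counting. In stellate-like nuclei Hspa8 stood at 158 CPM in HKO, against 148 in WT, a ratio of 1.07 (0.946 to 1.21) that included 1. Ratios in endothelial-like nuclei, 1.23 (1.12 to 1.36), and macrophage-like nuclei, 1.22 (1.11 to 1.33), were smaller than in hepatocyte-like nuclei, by a margin that was not tested. The constant HSP70 and the inducible one thus had ratios far apart in the same nuclei, 1.37 for Hspa8 and 9.88 for Hspa1b.

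Hsph1 encodes HSP105, an HSP110 protein that acts as a nucleotide exchange factor of HSP70 and helps it take aggregates apart (chr5:149614287-149636376, minus strand, 18 exons). It had 3164 UMIs or 88.7 CPM in HKO and 817 UMIs or 23.1 CPM in WT hepatocyte-like nuclei. The ratio was 3.84 (3.55 to 4.15), and the log2 ratio of 1.92 was higher than that of 99.4% of all genes. In HKO the level ran between 88.2 and 97.9 CPM over the 5 classes, and in WT between 13.9 and 23.1 CPM, so the libraries did not overlap. Ratios were 4.45 (3.62 to 5.52) in endothelial-like, 4.43 (3.67 to 5.38) in macrophage-like, 5.04 (3.76 to 6.91) in stellate-like and 6.78 (3.21 to 17.1) in T/NK-like nuclei, the last on 7 WT UMIs.

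Hspa4l, the other HSP110 gene of the group (chr3:40744495-40796103, plus strand, 19 exons), was likewise higher in HKO in each of the 5 classes. It had 2446 UMIs or 68.5 CPM in HKO and 898 UMIs or 25.4 CPM in WT hepatocyte-like nuclei, a ratio of 2.70 (2.50 to 2.92). Endothelial-like nuclei had 69.0 CPM in HKO, against 20.8 in WT, a ratio of 3.32 (2.70 to 4.11). Ratios in macrophage-like and stellate-like nuclei were 2.61 (2.19 to 3.12) and 2.49 (1.93 to 3.25). In T/NK-like nuclei the ratio was 5.27 (2.48 to 13.4), again on 7 WT UMIs. Hspa4, another HSP110 gene that is not in the group, had a ratio of 1.37 (1.31 to 1.43) in hepatocyte-like nuclei, with 141 CPM in HKO against 103 in WT.

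The HSP90 genes encode the cytosolic chaperones that finish the folding of kinases and steroid receptors; Hsp90aa1 is the stress-responsive form and Hsp90ab1 the constant one. Hsp90aa1 (chr12:110690605-110702728, minus strand) had 4387 UMIs or 123 CPM in HKO and 2064 UMIs or 58.3 CPM in WT hepatocyte-like nuclei, a ratio of 2.11 (2.0 to 2.22). Hsp90ab1 (chr17:45567775-45573271, minus strand) had 9080 UMIs or 254 CPM in HKO and 4403 UMIs or 124 CPM in WT, a ratio of 2.04 (1.97 to 2.12). The 2 forms had nearly equal ratios here and stood just past the size used for counting, with log2 ratios of 1.07 and 1.03.

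These genes also differed between classes within a library. In WT, Hsp90ab1 had 170 CPM (155 to 186) in stellate-like and 124 CPM (121 to 128) in hepatocyte-like nuclei. WT Hsp90aa1 likewise had 90.5 CPM (79.8 to 102) in stellate-like and 58.3 CPM (55.8 to 60.9) in hepatocyte-like nuclei. In HKO stellate-like nuclei the levels were 267 CPM for Hsp90ab1 and 137 CPM for Hsp90aa1. The ratios in stellate-like nuclei were accordingly 1.57 (1.41 to 1.74) for Hsp90ab1 and 1.51 (1.31 to 1.75) for Hsp90aa1. In macrophage-like nuclei Hsp90aa1 had 144 CPM in HKO, against 70.0 in WT, a ratio of 2.05 (1.83 to 2.31), and Hsp90ab1 a ratio of 2.14 (1.97 to 2.33).

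Stip1 encodes HOP, the adaptor that bridges HSP70 and HSP90 (chr19:7020702-7039967, minus strand). It had 3426 UMIs or 96.0 CPM in HKO and 1421 UMIs or 40.2 CPM in WT hepatocyte-like nuclei, a ratio of 2.39 (2.25 to 2.54). Its ratio was 2.23 (1.93 to 2.58) in endothelial-like, 2.07 (1.80 to 2.38) in macrophage-like, 1.87 (1.53 to 2.29) in stellate-like and 2.42 (1.55 to 3.96) in T/NK-like nuclei. Bag3 encodes a nucleotide exchange factor of HSP70 that directs damaged proteins to autophagy (chr7:128523616-128546981, plus strand, 4 exons). It had 3780 UMIs or 106 CPM in HKO and 1837 UMIs or 51.9 CPM in WT hepatocyte-like nuclei, a ratio of 2.04 (1.93 to 2.16). Its ratios in the other 4 classes lay between 1.80 and 2.05, and every interval was above 1.

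Dnajb1 encodes the J-domain partner HSP40 of HSP70 (chr8:83608193-83612653, plus strand) and was counted rarely. It had 200 UMIs or 5.61 CPM in HKO and 84 UMIs or 2.37 CPM in WT hepatocyte-like nuclei, a ratio of 2.36 (1.82 to 3.08). In macrophage-like nuclei the 54 HKO and 18 WT UMIs gave a ratio of 2.70 (1.56 to 4.89). In endothelial-like nuclei, with 44 HKO and 26 WT UMIs, the ratio of 1.09 (0.659 to 1.85) included 1, as did those in stellate-like and T/NK-like nuclei. In these 3 classes no difference of Dnajb1 beyond counting error was seen. The stellate-like and T/NK-like intervals also held the hepatocyte-like ratio of 2.36, while the endothelial-like interval ended below it.

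**Figure D2:**
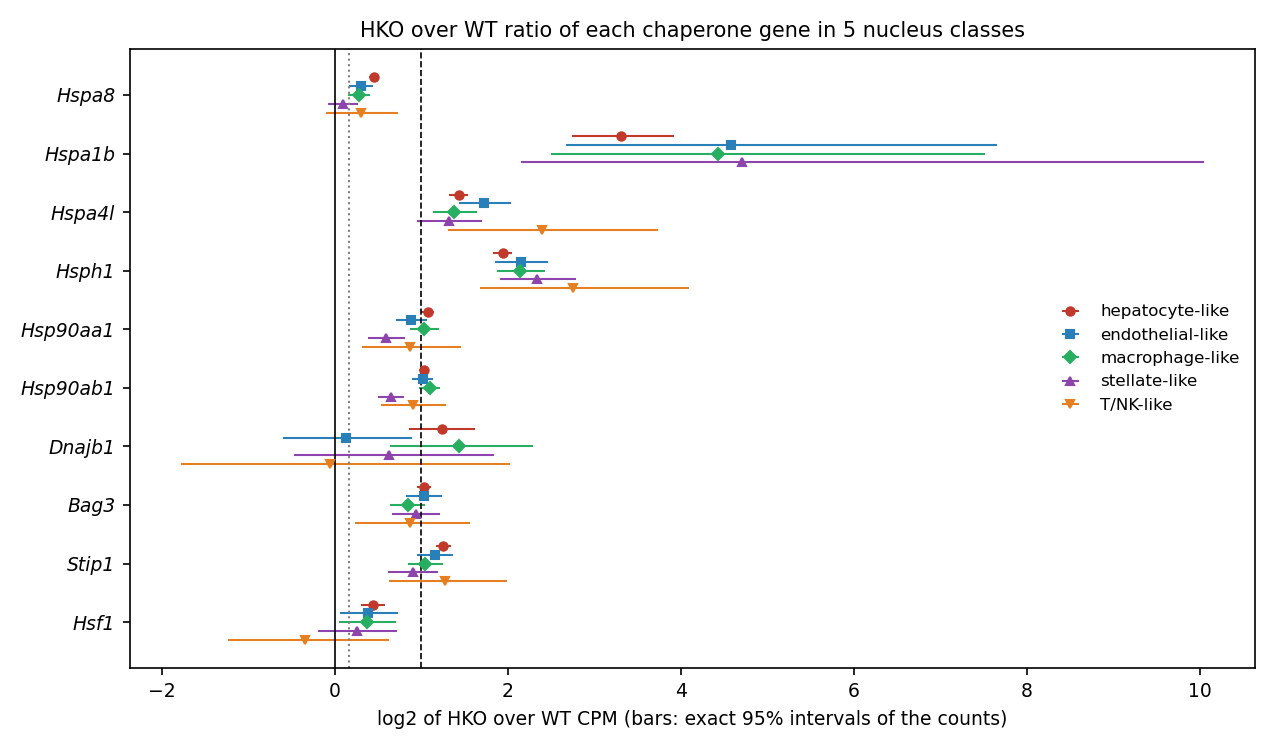
Log2 of the HKO over WT ratio of CPM, nothing added (horizontal axis), for each of the 10 genes in 5 classes of nuclei, with exact 95% intervals of the counts; the solid line marks equal levels, the dotted line the median of all genes in hepatocyte-like nuclei (0.17, after adding 0.5 CPM) and the dashed line a log2 ratio of 1. Hspa1b has no point in T/NK-like nuclei, where WT had 0 UMIs. Hspa1b, Hsph1 and Hspa4l lie farthest to the right, and Hspa8 and Hsf1 near the dotted line.

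Over the 10 genes and the 5 classes with at least 100 nuclei in each library, 48 of 50 ratios were above 1, and the interval lay above 1 in 43, included 1 in 7 and lay below 1 in 0. The exceptions below 1 were Hsf1 and Dnajb1 in T/NK-like nuclei. Of all measured genes, 32.7% (hepatocyte-like) to 41.3% (T/NK-like) had a log2 ratio below 0 in these classes. The share of intervals above 1 was not computed over all genes, so nothing is read from these counts. Counted by size, 5 of the 8 measured genes were higher in HKO in endothelial-like nuclei (2.57% of all genes there), 5 in macrophage-like nuclei (2.63%), 2 in stellate-like nuclei (2.87%) and 3 in T/NK-like nuclei (7.04%). None was lower in HKO in these classes, where 4.49%, 3.82%, 4.69% and 6.74% of all genes were. The summed level was 958 CPM in HKO and 493 CPM in WT endothelial-like nuclei, 1007 CPM in HKO and 519 CPM in WT macrophage-like nuclei, and 941 CPM in HKO and 576 CPM in WT stellate-like nuclei. The stellate-like ratio of the sum was the smallest of the 5, 1.63 (1.54 to 1.73).

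Named classes with fewer nuclei gave ratios of the sum in the same direction: 2.37 (1.96 to 2.88) in dendritic-like, 1.80 (1.44 to 2.29) in B-like and 1.64 (1.26 to 2.15) in cholangiocyte-like nuclei. They rest on 363, 163 and 123 HKO nuclei and 67, 46 and 33 WT nuclei, in that order of class. The unnamed clusters led by cycling genes, with 510 HKO and 1031 WT nuclei, had ratios of 4.72 (3.68 to 6.08) for Hsph1 and 2.45 (2.01 to 2.99) for Hspa4l. There Dnajb1 had 10.2 CPM in HKO, against 1.99 in WT, a ratio of 5.12 (2.41 to 11.6). Hspa8, at 1.11 (0.987 to 1.26), and Hsf1, at 1.28 (0.936 to 1.73), had intervals in these clusters that included 1. The intervals of the other genes lay above 1. In the unnamed clusters led by mitochondrial and haemoglobin genes, which rest on 33 HKO nuclei, Hspa8 had 40 UMIs in HKO and 1319 in WT, a ratio of 2.95 (2.10 to 4.04), and Hsph1 a ratio of 3.98 (1.44 to 8.86). Bag3, at 0.316 (0.00798 to 1.78), and Hsf1, at 0.855 (0.0214 to 4.86), had 1 HKO UMI each, and Hspa1b had 0 UMIs in HKO and 6 in WT.

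Within a library each gene was also compared between the 5 classes, 10 pairs a gene. Intervals were apart in 3 HKO and 5 WT pairs for Hsp90aa1, 2 HKO and 3 WT pairs for Hsp90ab1, 0 HKO and 2 WT pairs for Hspa8, 1 HKO and 1 WT pair for Stip1, 1 HKO and 0 WT pairs for Bag3 and 0 HKO and 1 WT pair for Dnajb1. For Hsph1, Hspa4l, Hspa1b and Hsf1 no pair was apart in either library. Pairs apart were not counted over all genes, and intervals are narrower, relative to the level, for genes with more UMIs. These counts therefore do not show that classes differ more for one gene than for another. In HKO, Bag3 had 106 CPM (103 to 109) in hepatocyte-like and 91.7 CPM (84.6 to 99.3) in macrophage-like nuclei. In WT, Hspa8 had 148 CPM (134 to 163) in stellate-like and 124 CPM (120 to 127) in hepatocyte-like nuclei, and Dnajb1 had 4.96 CPM (3.24 to 7.27) in endothelial-like and 2.37 CPM (1.89 to 2.94) in hepatocyte-like nuclei.

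Hepatocyte markers stood in the other named classes at 78.4% to 95.5% of their level in hepatocyte-like nuclei (median of 15 markers) and the part of RNA from outside the nucleus in the chaperone counts was not tested. Each class was also split in each library at the median share of hepatocyte marker UMIs. In the nuclei below the median share the ratio of the summed genes was 2.06 (1.94 to 2.19) in endothelial-like, 2.08 (1.96 to 2.21) in macrophage-like, 1.78 (1.64 to 1.94) in stellate-like and 2.36 (1.95 to 2.88) in T/NK-like nuclei. In those above it the ratio was 1.77, 1.74, 1.46 and 1.47 in the same order. Below the median share, over the 4 classes, the markers still stood at 54.5% to 75.5% (HKO) and at 74.9% to 88.4% (WT) of the level they had in hepatocyte-like nuclei.

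Single nuclei were compared after thinning each to 2000 UMIs, which left 7214 HKO and 7692 WT hepatocyte-like nuclei and dropped 922 HKO and 68 WT nuclei. At least 1 UMI of any of the 10 genes was seen in 83.7% (82.9% to 84.6%) of HKO nuclei, against 62.2% (61.1% to 63.3%) of WT nuclei. Without thinning the shares were 94.3% in HKO and 83.3% in WT, at median depths of 3925.5 UMIs in HKO and 3839 UMIs in WT. At least 2 different genes of the group were seen in 50.9% of HKO nuclei, against 21.8% of WT nuclei. No class of liver nuclei lacks these chaperones by nature, so no background share could be set beside these. Thinned endothelial-like nuclei had at least 1 UMI in 84.3% in HKO and 64.1% in WT. Thinning left 1169 of 2289 HKO and 1107 of 1128 WT nuclei of that class.

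The mean number of UMIs of the group per thinned hepatocyte-like nucleus was 1.90 in HKO and 0.982 in WT. The variance divided by the mean was 1.07 in HKO and 1.02 in WT, close to the value of 1 that evenly spread counts give. The highest count in a nucleus was 9 in HKO and 7 in WT. Nuclei with 3 or more UMIs made up 29.4% in HKO and 7.79% in WT. By gene, the share of nuclei with a UMI was 16.02% in HKO against 4.50% in WT for Hsph1, 38.6% in HKO against 23.7% in WT for Hsp90ab1, and 1.51% in HKO against 0.169% in WT for Hspa1b. At 1 or 2 UMIs a nucleus, small differences between nuclei move this value little, while large ones would raise it. UMIs from RNA outside the nucleus may be among the counts, so how the level was spread over nuclei was not settled.

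**Figure D3:**
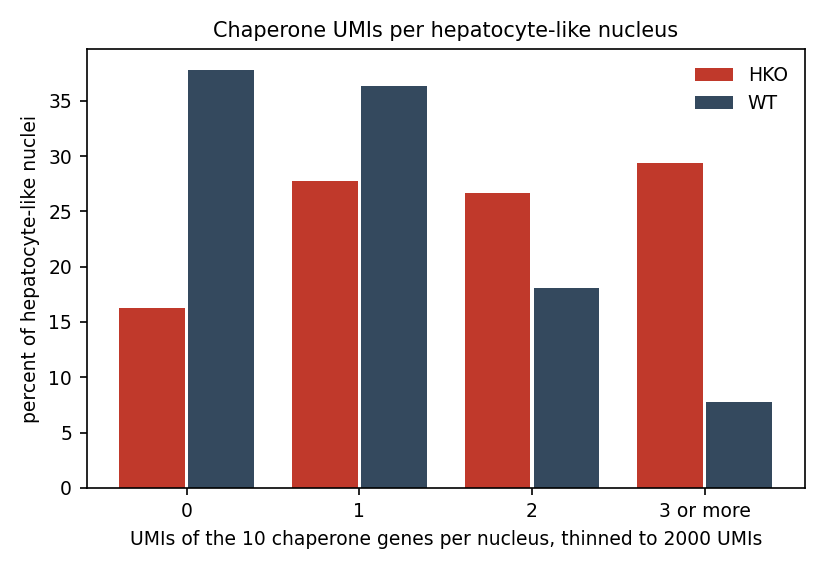
Percent of hepatocyte-like nuclei (vertical axis) with 0, 1, 2 or at least 3 UMIs of the 10 genes after thinning to 2000 UMIs (horizontal axis), HKO bars at the left of WT bars. In HKO 16.3% of 7214 nuclei had none and 29.4% had at least 3, against 37.8% with none and 7.79% with at least 3 of 7692 WT nuclei.

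The mitochondrial share differed between the libraries and went with some of the genes within each. Hepatocyte-like nuclei were split into terciles of that share, with medians of 0.0212%, 0.0735% and 0.230% in HKO and 0.133%, 0.250% and 0.449% in WT. Hsp90ab1 stood at 222, 248 and 300.4 CPM in the lowest, middle and highest tercile in HKO and at 109, 127 and 144 CPM in WT. Hsp90aa1 stood at 111, 123 and 138 CPM in HKO and at 49.8, 60.01 and 68.6 CPM in WT, and Hspa8 at 154, 170.3 and 185 CPM in HKO and at 117, 125 and 131 CPM in WT. Levels of these genes were thus higher in nuclei with more mitochondrial UMIs in both libraries. The part of the mitochondrial share in the differences between HKO and WT was not tested. Hsph1, Hspa4l, Stip1 and Bag3 had overlapping intervals in the lowest and the highest tercile in both libraries. Bag3, for example, had 105 and 105 CPM in HKO and 52.1 and 52.1 CPM in WT in the lowest and highest terciles. The ratio of the summed genes was 2.0, 1.97 and 2.04 in the 3 groups.

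**Figure D4:**
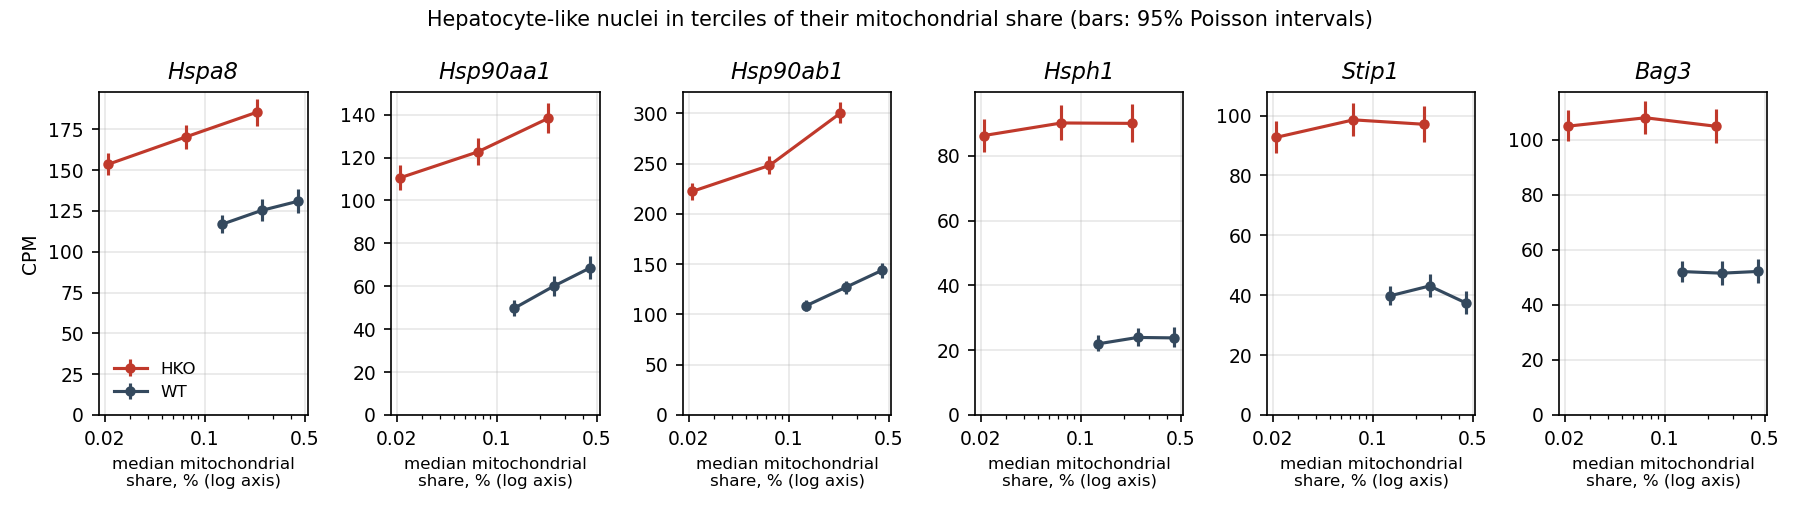
Level of 6 genes in CPM (vertical axis, from 0) in hepatocyte-like nuclei split into terciles of mitochondrial share, placed at the median share of each tercile (log axis, percent), HKO and WT drawn as separate lines with exact 95% Poisson intervals. Hsp90ab1 goes through 222, 248 and 300.4 CPM in HKO and through 109, 127 and 144 CPM in WT, while Hsph1, Stip1 and Bag3 stay nearly level within each library.

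Levels also differed with depth, and those of some genes with position in the lobule. In terciles of UMIs per nucleus the summed level was 1021, 963 and 913 CPM in HKO and 514, 497 and 441 CPM in WT, with ratios of 1.99, 1.94 and 2.07. WT Hsp90aa1, for example, had 72.4, 64.3 and 50.1 CPM toward more UMIs, while HKO Bag3 had 91.5, 110.4 and 108 CPM. In terciles ordered by the share of pericentral minus periportal marker UMIs, the summed level was nearly even. It was 933, 946 and 960 CPM in HKO and 469, 461 and 481 CPM in WT, with ratios of 1.99, 2.05 and 2.0. In HKO Hspa1b had 6.10 CPM (4.75 to 7.70), 6.72 CPM (5.37 to 8.31) and 10.7 CPM (8.92 to 12.8) toward the pericentral end. In WT its 28 UMIs were too few to show an order. A cluster of 866 HKO nuclei led by pericentral genes such as Glul, the glutamine synthetase gene, had 13.9 CPM (10.4 to 18.2) of Hspa1b, against 7.09 CPM (6.20 to 8.08) in the large HKO hepatocyte-like cluster. Hsp90aa1 had 113, 125 and 131 CPM and Hsp90ab1 had 246, 247 and 271 CPM toward the pericentral end in HKO, against 62.5, 56.1 and 57.3 CPM and 125, 119 and 129 CPM in WT. Hspa8 went the other way in HKO, with 177, 169.8 and 159.8 CPM, and stood at 119, 123 and 128 CPM in WT.

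Regrowing liver holds dividing hepatocytes, and nuclei with at least 3 UMIs of 20 cycling genes were set against the others, taking hepatocyte-like and cycling-led clusters together. Hsp90aa1 had 158 CPM in the 644 cycling HKO nuclei and 124 CPM in the 8002 others, and 74.4 CPM in the 1659 cycling WT nuclei and 58.1 CPM in the 7132 others. Hspa4l had 83.6 and 68.4 CPM in HKO and 30.8 and 25.6 CPM in WT, in cycling and other nuclei. Stip1 had 52.8 CPM (48.3 to 57.5) in cycling and 39.9 CPM (37.7 to 42.2) in other WT nuclei; its HKO intervals overlapped. The ratio of the summed genes was 1.90 (1.82 to 1.98) in cycling and 2.02 (1.98 to 2.06) in other nuclei. The level of the group was thus higher in HKO in cycling and in other nuclei alike. All 5 measured genes of the cycling list had log2 ratios below 0 in hepatocyte-like nuclei (32.7% of all genes did), with a median of −0.91.

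Of 118 genes on 9 further lists, 117 were in the tables and 89 reached the minimum in hepatocyte-like nuclei; 1 was higher in HKO by size (2.97% of all genes), 0 were lower (4.25% of all genes) and 88 lay between. The share higher is near that of all genes. The gene past the size was Fkbp5, an HSP90 co-chaperone of steroid receptors and a known target of glucocorticoid hormones, with 1242 CPM in HKO, against 162 in WT, a log2 ratio of 2.94. Other HSP90 co-chaperones came close to the size: Chordc1 had 78.0 CPM in HKO against 39.6 in WT, and Ahsa1, the activator of HSP90 ATP hydrolysis, had 25.7 CPM in HKO against 13.6 in WT. That list had 15 measured genes with a median log2 ratio of 0.55, the highest of the 9, beside 0.17 for all genes.

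The J-domain list had 19 measured genes with a median of 0.37 and none below 0, where 32.7% of all genes were below 0. Dnajb2 had a log2 ratio of 0.74 and Dnaja1 of 0.60. The cytosolic TRiC chaperonin and its partner prefoldin had a median of 0.32 over 10 genes, with Cct3 highest at 0.67. Mitochondrial chaperones had a median of 0.23, with 0.41 for Hspd1, which encodes HSP60, and 0.38 for its partner Hspe1. In the endoplasmic reticulum the 17 measured genes had a median of 0.10 and ranged both ways, with 0.98 for Creld2 and −0.65 for the lectin chaperone gene Calr. HSP70 co-chaperones had a median of 0.08, with 0.56 for St13 and −0.34 for Bag6. The small heat shock proteins had 2 measured genes of 8 and a median of 0.06. Remaining cytosolic HSP70 and HSP110 genes had a median of −0.30, with −0.55 for Hspa13. With TMM factors, which lower every ratio, the medians were −0.03 for endoplasmic reticulum chaperones, −0.05 for HSP70 co-chaperones and −0.08 for small heat shock proteins, so their sign turned; the signs of the other 6 medians did not.

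**Figure D5:**
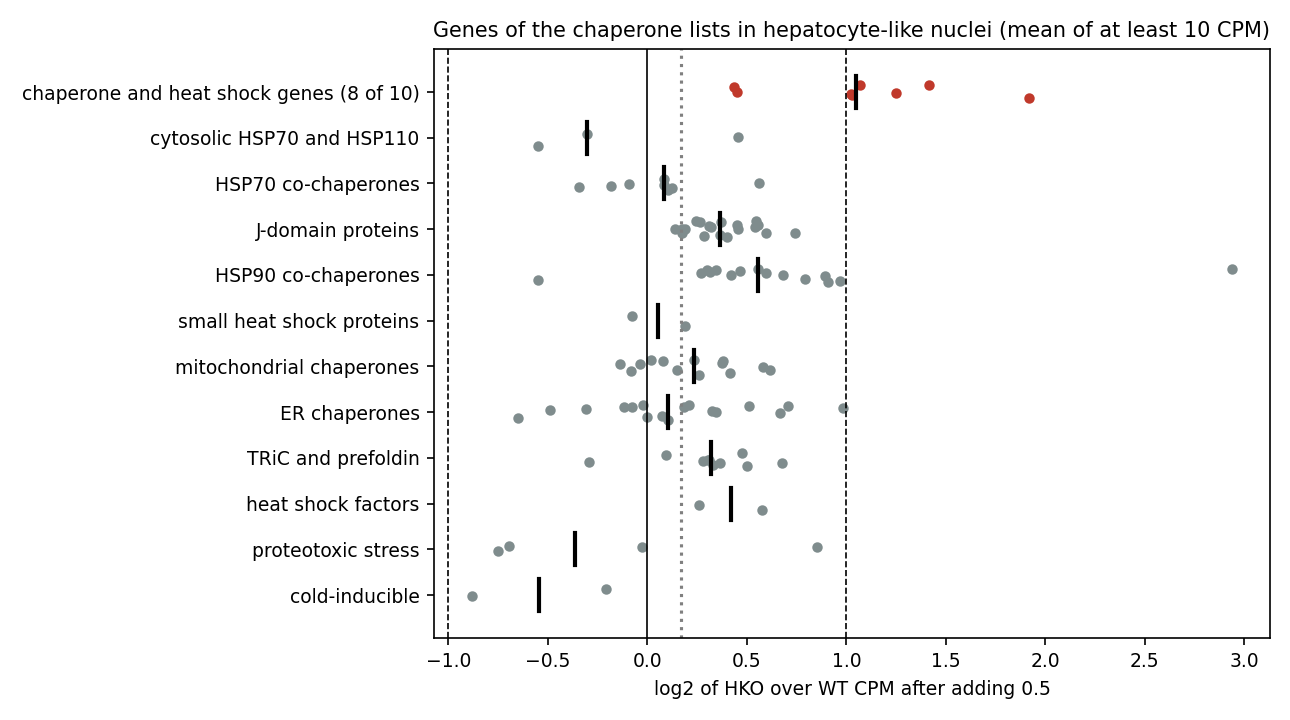
Log2 ratio of HKO over WT CPM after adding 0.5 (horizontal axis) of each gene with 10 CPM or more on average in hepatocyte-like nuclei, by list (rows); thick bars mark list medians, the dotted line the median of all genes (0.17) and the dashed lines the sizes of 1 and −1. The 8 measured genes of the group (top row) have a median of 1.05, and the medians of the 9 chaperone lists below it lie between −0.30 and 0.55.

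Other stress lists had medians below 0 in hepatocyte-like nuclei, −0.36 for proteotoxic stress, −0.54 for cold-inducible and −0.77 for immediate early genes. Of the proteotoxic stress list, Hmox1, which degrades haem, had a log2 ratio of 0.85, while the ubiquitin gene Ubb had −0.75 and the autophagy receptor gene Sqstm1 had −0.03. Immediate early genes, which respond within minutes to handling of tissue as well as to growth signals, were lower in HKO: Egr1, a transcription factor gene, had 12.7 CPM in HKO against 46.7 in WT, and all 5 measured genes were below 0 (32.7% of all genes), with 2 lower by size (4.25% of all genes). The cold-inducible genes Cirbp, with 10.9 CPM in HKO against 20.4 in WT, and Rbm3, with 47.3 CPM in HKO and 54.7 CPM in WT, had log2 ratios of −0.88 and −0.21. These are whole-library differences as well, and their part in the chaperone values was not tested.

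The 10 columns of 5 classes by 2 libraries also gave a profile for each gene. Over them the log2 level of Stip1 had a Pearson r of 0.990 with the mean of the group, Hsph1 0.987, Hspa1b 0.985, Bag3 0.983, Hsp90ab1 0.981, Hspa4l 0.964, Hsp90aa1 0.955 and Hspa8 0.887. Hsf1 and Dnajb1 followed it least, at 0.576 and 0.572. Each gene is part of that mean, and the columns share 2 libraries, so these values mostly restate the split between HKO and WT. Among 3924 other genes averaging 50 CPM or more the most alike were Setd5 (0.994), Fkbp5 (0.994), Srsf4 (0.993), Ndufaf4 (0.992) and Gm17276 (0.991). In hepatocyte-like nuclei Setd5 had 1642 CPM in HKO against 276 in WT, and Srsf4, a splicing factor gene, 199 CPM in HKO and 132 CPM in WT.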

How the data were processed

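The authors deposited raw UMI counts per gene and barcode for 1 HKO and 1 WT library, made with Cell Ranger 5.0.0 per the file headers. STAR, Seurat 3.2.0 and GRCm38 are named per the submitters' processing notes, with no role. Neither the counting of intronic reads nor the isolation of nuclei is described in the labels, whose extract protocol speaks of total RNA while the molecule is nuclear RNA.

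A barcode entered with 500 or more genes and a mitochondrial share below 10%; doublets were not removed. The libraries were clustered jointly, with no correction for library, on 2000 variable genes, none of them on the chaperone lists, with 30 components, 15 neighbours and the Leiden algorithm at resolution 0.5 (scanpy 1.11.5, leidenalg 0.10.2). Clusters were named from marker lists within the library that held most of their nuclei. A class other than hepatocyte needed a mean marker excess of at least 1 on the log2 scale. Hepatocyte-like clusters needed a share of at least 0.5 of the 15 markers above the median of the clusters named otherwise. Their mean excess over that median was small, 0.04 to 0.18 on the log2 scale, with 8 to 15 markers above it. Clusters with mitochondrial or haemoglobin genes as at least 5 of their 10 leading genes stayed unnamed. These naming rules were set after the data were seen. The 10 genes, the further lists and the rule for named genes were chosen with earlier results of these data known; that rule names all 10 genes, up to 4 measured genes with the largest log2 ratio of each further list, Hspa1a, the 5 genes of most similar profile, Sox9 and quality genes. A gene that it names from a further list is not reported here.

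UMIs were summed per class and library and scaled to 1000000 (CPM). No test was possible with 1 library a group. Precision comes from depth, 61123904 UMIs in HKO and 64609301 in WT. Ratios, intervals and the size rule were tested on simulated data. Thinning was checked on deposited barcodes, only for the total that it leaves. Alternatives were other scalings (TMM in edgeR 4.0.16, median ratio), filters, resolutions, weights and thinning. Of the genes in the tables, 27645 of 27998 matched the annotation by identifier (GENCODE, GRCm38).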

Additional observations from a re-analysis of the deposited data

How the results depend on the processing

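No paired analysis was possible because each group is 1 library. No log2 ratio of the 10 genes in hepatocyte-like nuclei changed sign and no gene of the group was lower in HKO by size under any alternative run, in any of the 5 classes. The log2 ratio ranged over 1.74 to 1.99 for Hsph1, 1.24 to 1.46 for Hspa4l, 1.11 to 1.35 for Stip1, 0.89 to 1.13 for Bag3, 0.93 to 1.32 for Hsp90aa1, 0.89 to 1.03 for Hsp90ab1, 0.31 to 0.56 for Hspa8, 0.30 to 0.48 for Hsf1, 0.52 to 1.40 for Dnajb1 and 1.15 to 2.96 for Hspa1b. Counts of genes higher by size moved with scaling and with the choice of nuclei. With TMM factors 3 of the 8 measured genes were higher in hepatocyte-like nuclei in place of 6, 3 in endothelial-like in place of 5 and 2 in macrophage-like in place of 5. With median ratio factors 3 were higher in each of these classes. Several genes lie close to the size of 1. Thinned to 2000 UMIs per nucleus, the 8 genes had a median log2 ratio of 0.97 in hepatocyte-like nuclei, in place of 1.05. That median lies under the size, so fewer than 6 of them were past it. In endothelial-like nuclei the count was 3 with equal weight per nucleus or with 5 CPM added. In macrophage-like nuclei it was 3 without the 5% of barcodes with the most UMIs, with thinning, or with 5 CPM added. Restricting to nuclei under 0.1% mitochondrial UMIs gave 5 in stellate-like nuclei in place of 2 and 6 in T/NK-like nuclei in place of 3. The median share in WT was 0.50% in the 637 stellate-like and 0.42% in the 118 T/NK-like nuclei. Most WT nuclei of these classes were thus left out, and these counts rest on few. T/NK-like nuclei with the lowest share of hepatocyte marker UMIs also gave 6, on 59 WT nuclei with 127 UMIs of the group. The count of further chaperone genes higher in HKO, 1, was 3 at resolution 1 and under 0.1% mitochondrial UMIs. It was 2 without the deepest 5% of barcodes, with thinning, with unnamed clusters added, and at a minimum of 1 CPM. Thinned to 1000 UMIs, the share of hepatocyte-like nuclei with a UMI of the group was 61.6% in HKO and 38.1% in WT. Leaving out the 70 barcodes found in both libraries, chosen after seeing the data, moved no count past 1.5 times. The cause of these shifts was not tested. Depth limits Hspa1b and Dnajb1, and all genes in the smaller classes.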
